A study of Mus musculus with 10 samples.

Results

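The genes described here are those through which a cell takes up glucose, breaks it down by glycolysis and disposes of the pyruvate and lactate that result, measured in mouse spermatogonia. A list of 36 gene symbols was matched to the gene names on the array, control spots left out, and where a gene had several probes the probe with the brightest mean log2 signal over the 10 arrays was taken. Of the 36 symbols, 35 were found among the 27372 gene names on the array. The symbol not found was Pkm2, and the array names the pyruvate kinase gene Pkm instead, so its values are given apart from the members.

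Glucose enters a cell through facilitative transporters of the Slc2a family and is trapped by hexokinases. Phosphofructokinase, which is tuned by fructose 2,6-bisphosphate, commits it to glycolysis, and the lower part of the pathway runs through Gapdh, phosphoglycerate kinase and enolase to pyruvate. Pyruvate is either reduced to lactate, which leaves or enters through monocarboxylate transporters of the Slc16a family, or is admitted to the mitochondrion by pyruvate dehydrogenase, which the Pdk kinases switch off. In the testis, Sertoli cells are known to supply lactate to meiotic and later germ cells, while in cultured spermatogonial stem cells glycolysis has been linked to self-renewal.

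The study asked what FGF5, a secreted fibroblast growth factor, does to spermatogonial stem cells. Its cultured material was germline stem (GS) cells, a long-term culture of wild-type spermatogonia, which went 3 days without FGF2 and GDNF before 24 hr with 100 ng/mL FGF5 (2 arrays) or with no FGF5 (2 arrays). Its material from the animal was the GFP+ fraction sorted by flow cytometry from testes of 2.5-month-old Gfra1-GFP mice, either wild type (WT, 3 arrays) or homozygous for the null Fgf5 allele (Fgf5-/-, 3 arrays). All 10 samples are labelled C57BL/6, although the methods derive the GS cells from a C57BL/6 and ICR intercross. The GFP reporter, driven by the Gfra1 locus, was present in all sorted samples including WT and was the basis of the sort. GS cells were not sorted. How many mice entered a sorted sample, and whether samples with the same number share an experiment, is not given in the sources used here, so p-values measure the spread between these samples.

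The arrays were 1-colour Agilent 60-mer arrays, and between 55.3% and 65.9% of 55681 probes were well above background on each. Every level below is the log2 signal of a probe relative to the 75th percentile of its own array, so that 0 is the 75th percentile, and levels of different probes are not set against each other. All 15 markers of undifferentiated spermatogonia were above background on all 10 arrays. The single Fgf5 probe was above background on the 4 culture arrays and below it on the 3 WT arrays, so it cannot check the genotype labels. Among the sorted samples it was above background in the array labelled Fgf5-/- replicate 1 alone, at -3.42, against -6.83 and -6.90 on the other Fgf5-/- arrays and -5.47, -6.59 and -6.66 on the WT arrays. That array also stood apart for the members, as described with the Fgf5-/- comparison. The cultured and sorted samples lay on separate slides, so slide and material cannot be told apart. As these are bulk samples, fewer cells of a type and less RNA per cell cannot be told apart either.

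Of the 35 members, 34 were well above background on all 10 arrays and were tested in each of the 3 comparisons. The remaining member was Pdk4, a pyruvate dehydrogenase kinase induced by fasting, which was above background on 2 of 4 culture arrays and on 0 of 6 sorted arrays. The map of the members across arrays shows that the sharpest division ran between cultured and sorted cells, and this comparison is given first.

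**Figure D1:**
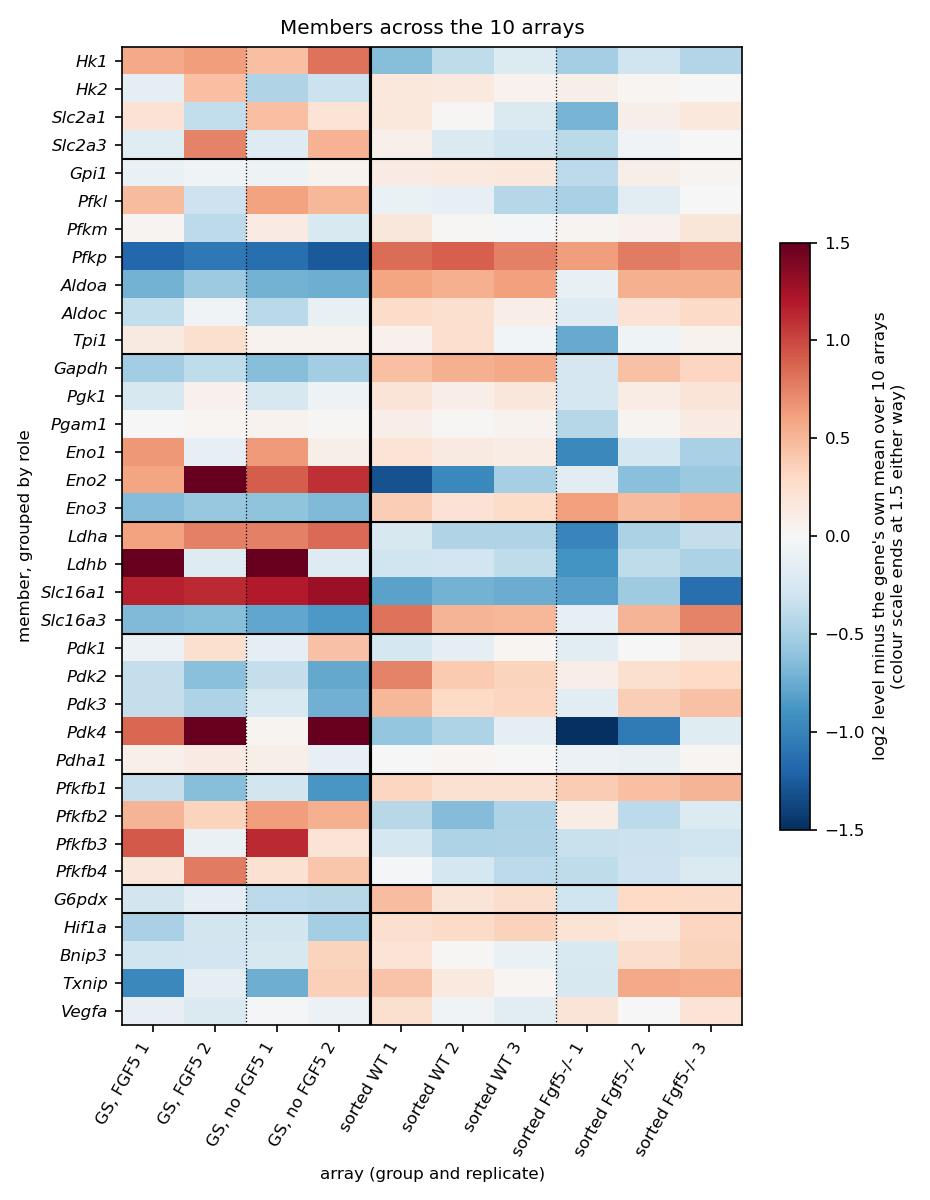
Level of each of the 35 members (listed by role from top to bottom) on each of the 10 arrays (left to right), as log2 level minus the gene's own mean over the 10 arrays, with colours ending at 1.5 either way. Slc16a1 and Pfkp change sides between the 4 culture arrays and the 6 sorted arrays, Ldhb is high on the 2 culture arrays numbered 1, and the column of Fgf5-/- replicate 1 is bluer than its neighbours in many genes.

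Cultured GS cells differed from sorted GFP+ cells in 21 of the 34 tested members, 10 higher and 11 lower in culture, at an adjusted p under 0.05 (limma, Benjamini-Hochberg over all tested probes). The materials differed widely across the genome, since 67.6% of all 35826 tested probes passed the same test, 41.9% higher and 25.7% lower in culture. The members' share of 61.8% was near the background. With the FGF5 group set against WT alone, 5 members were higher and 10 lower, and with arrays scaled to the median of tested probes 7 were higher and 16 lower. The shares of all probes called in these settings are not given here, so these counts cannot be read against a background. The median difference of the members was -0.13, while the median of all tested probes was 0.26, and 16 members lay above 0 (47.1%) against 60.1% of all probes. All culture arrays lay on 1 side of all sorted arrays for 17 of 34 members and for 55.7% of all probes, with 8 members on the high side (34.7% of all probes) and 9 on the low side (21.0% of all probes). A difference of at least 2-fold was reached by 5 members higher in culture (24.3% of all probes) and 4 lower in culture (10.5% of all probes).

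**Figure D2:**
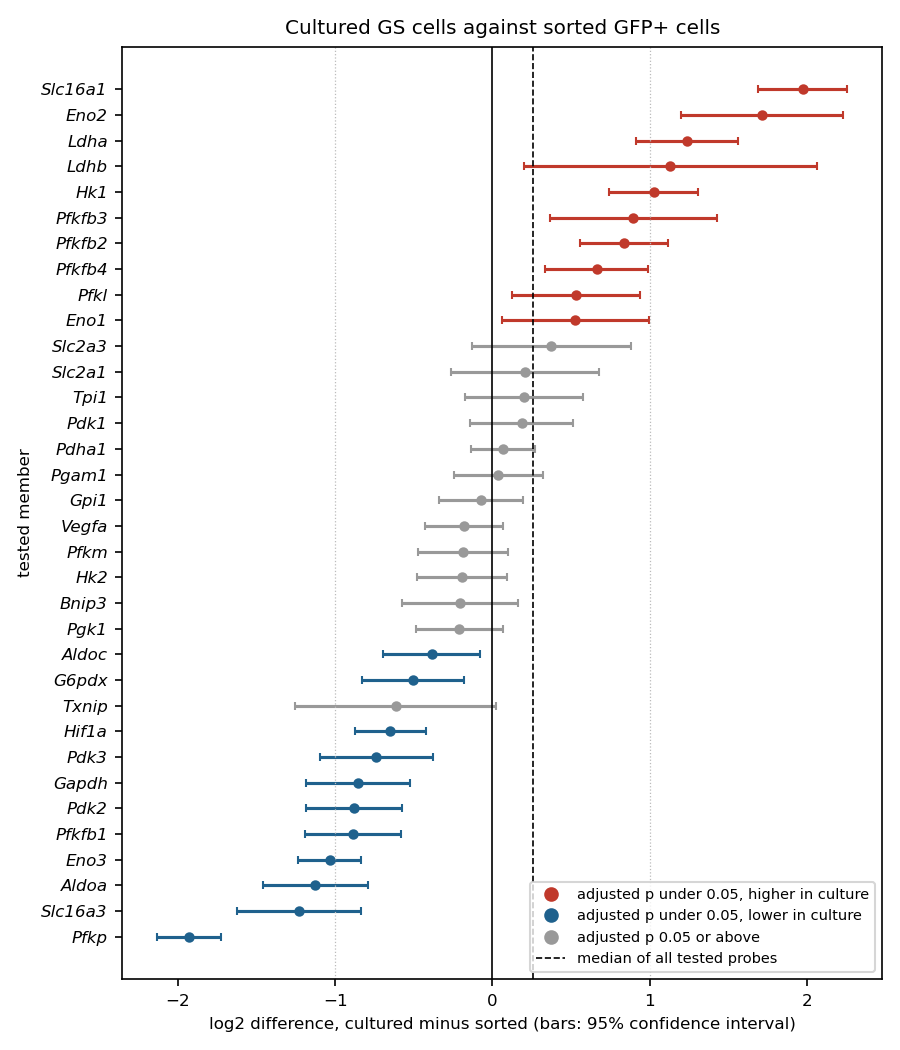
Log2 difference, cultured minus sorted, of the 34 tested members with 95% confidence intervals. Slc16a1 at 1.97 and Pfkp at -1.93 lie at the ends, 13 members in grey did not pass, and the dashed line marks the median of all tested probes at 0.26.

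Beside these values stand those of other cell types. Counts called among their markers stand beside 41.9% of all probes called higher and 25.7% called lower in culture. The summed signal of 11 fibroblast and peritubular markers, relative to the 75th percentile, was 6.73 to 16.5 on the culture arrays and 5.08 to 6.57 on the sorted arrays, and of the 10 tested 6 were higher in culture, led by the collagen gene Col1a2 at a difference of 3.66, and 2 were lower, Pdgfra at -0.46 and Pdgfrb, which was not above background on any culture array. Summed spermatid markers were 0.839 to 1.03 in culture and 4.52 to 16.0 in sorted cells, and all 4 tested were lower in culture, with the transition protein gene Tnp1 at -4.52. Summed Sertoli cell markers were 2.28 to 2.93 in culture and 6.19 to 10.7 in sorted cells, with 4 of 6 tested lower in culture and 1, Sox9, higher. Macrophage markers (4 of 4 tested) and Leydig cell markers (2 of 2 tested) were higher in culture. Endothelial markers were split, with 2 higher and 2 lower of 4 tested, and of 5 spermatocyte markers 1 was higher and 3 were lower. Of 15 markers of undifferentiated spermatogonia 4 were higher, led by Pou5f1 at 0.72, and 7 were lower, led by Etv5 at -3.50 and Gfra1 at -3.01. The Etv5 value pools culture groups with means of 3.68 with FGF5 and -0.24 without. Of 5 markers of differentiating spermatogonia 2 were lower, Stra8 (-3.14) and Kit (-2.77), and 0 were higher. Some calls came from markers that entered the test only through the material in which they are high. They were 3 of the 6 higher and 1 of the 2 lower fibroblast and peritubular markers, and 1 of the 4 lower spermatid markers (Tnp2). In the Sertoli list they were 1 of the 4 lower and the higher Sox9. Also among them were 1 of the 4 higher macrophage markers (Emr1) and 1 of the 2 lower endothelial markers (Tek). From the spermatocyte list came 1 of the 3 lower markers (Spo11). The part of these cells and states in the members' differences was not tested.

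All 4 genes of lactate handling passed the test with at least a 2-fold difference (24.3% of all probes higher and 10.5% lower), although the call of Ldhb was lost in 4 of 13 alternative settings and with 8 of 10 arrays left out in turn. Ldha and Ldhb encode the muscle-type and heart-type subunits of lactate dehydrogenase. Slc16a1 encodes the widely expressed monocarboxylate transporter, and Slc16a3 the transporter typical of cells that export lactate. The first 3 were higher and Slc16a3 was lower in culture.

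Slc16a1 was at -2.14 and -2.18 with FGF5, -2.11 and -2.01 without FGF5, -4.10, -4.00 and -4.04 in WT, and -4.11, -3.82 and -4.42 in Fgf5-/-. The 4 culture arrays lay close together above all 6 sorted arrays. The difference was 1.97 (SE 0.12, 95% confidence interval 1.69 to 2.26, 3.92-fold, adjusted p = 6.99e-06).

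Slc16a3 ran the other way. It was at -1.11 and -1.09 with FGF5, -1.23 and -1.31 without FGF5, 0.36, 0.06 and 0.05 in WT, and -0.57, 0.07 and 0.30 in Fgf5-/-. The culture arrays lay below the sorted arrays, and the lowest sorted value came from Fgf5-/- replicate 1. The difference was -1.23 (SE 0.17, 95% confidence interval -1.62 to -0.84, 2.34-fold lower in culture, adjusted p = 3.28e-04). The second Slc16a3 probe gave -1.28, but it shares a run of 53 of its 60 bases with the first and is not a separate reading.

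The promoters of these transporters, which moved in opposite directions, are shown with that of Pfkp, the member with the lowest difference. Each is the 300-base RefSeq window on GRCm38.p6, 5′ to 3′ on the gene's strand, and capitals mark ACGTG or GCGTG on either strand, the core letters of hypoxia and E-box type elements. The windows are Slc16a1 at chr3:104638414-104638713 on the plus strand, Slc16a3 at chr11:120948817-120949116 on the plus strand, and Pfkp at chr13:6648722-6649021 on the minus strand.
Slc16a1: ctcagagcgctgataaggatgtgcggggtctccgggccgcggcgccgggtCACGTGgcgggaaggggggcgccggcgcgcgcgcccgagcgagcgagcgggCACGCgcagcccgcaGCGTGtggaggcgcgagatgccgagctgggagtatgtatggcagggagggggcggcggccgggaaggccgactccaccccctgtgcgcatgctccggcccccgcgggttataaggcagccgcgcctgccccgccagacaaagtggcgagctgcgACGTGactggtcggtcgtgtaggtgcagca
Slc16a3: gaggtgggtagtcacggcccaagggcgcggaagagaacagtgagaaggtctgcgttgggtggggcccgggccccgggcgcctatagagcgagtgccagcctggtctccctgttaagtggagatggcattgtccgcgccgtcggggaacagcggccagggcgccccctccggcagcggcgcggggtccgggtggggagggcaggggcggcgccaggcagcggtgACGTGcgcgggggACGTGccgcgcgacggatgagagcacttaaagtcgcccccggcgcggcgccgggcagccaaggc
Pfkp: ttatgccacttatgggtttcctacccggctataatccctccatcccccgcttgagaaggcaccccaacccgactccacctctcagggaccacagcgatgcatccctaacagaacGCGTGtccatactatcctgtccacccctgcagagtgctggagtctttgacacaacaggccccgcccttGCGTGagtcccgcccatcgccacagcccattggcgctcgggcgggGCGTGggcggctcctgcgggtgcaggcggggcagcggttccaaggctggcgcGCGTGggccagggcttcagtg

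All 3 windows hold these letters, in 4 separate runs in Slc16a1, 2 in Slc16a3 and 4 in Pfkp. The capital run nearest the upstream end of the Slc16a1 window is the palindrome CACGTG, which contains ACGTG on both strands. Of the 35 members, 34 had at least 1 window in the table. ACGTG or GCGTG stood in 41 of their 53 windows (77.4%) and in 43.8% of all 32851 windows, and CACGTG in 8 of the 53 (15.1%) and in 7.15% of all. The members' windows had a median of 60.3% G and C bases against 52.7% over all windows, and the part of base composition in these shares was not tested. By gene, ACGTG or GCGTG was found in at least 1 window of 9 of the 10 members higher in culture, of 11 of the 11 lower, and of 10 of the 12 that did not pass and had a window. Windows of a gene can overlap, as for Eno1 and Aldoa, so the same match can be counted in more than 1 window. The share by gene over all genes is not given here, so the counts by gene have no background beside them. These matches are a description of the letters in the windows.

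Ldha was at 4.70 and 4.86 with FGF5, 4.86 and 4.95 without FGF5, 3.86, 3.65 and 3.65 in WT, and 3.11, 3.62 and 3.75 in Fgf5-/-. The culture arrays lay above the sorted arrays without overlap. The difference was 1.24 (SE 0.14, 2.36-fold, adjusted p = 1.11e-04), and the other 2 Ldha probes gave 1.37 and 1.43, both passing the test.

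Ldhb was at 3.28 and 1.55 with FGF5, 3.31 and 1.54 without FGF5, 1.45, 1.45 and 1.36 in WT, and 0.84, 1.37 and 1.27 in Fgf5-/-. The 2 culture arrays numbered 1 stood far above the others, while the 2 numbered 2 lay just over the sorted arrays. The difference of 1.13 (SE 0.41, 2.19-fold, adjusted p = 0.0356) rested on the arrays numbered 1. Without replicate 1 of the FGF5 group it was 0.70 and without replicate 1 of the group without FGF5 it was 0.69, both with an adjusted p of 0.139 by limma.

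**Figure D3:**
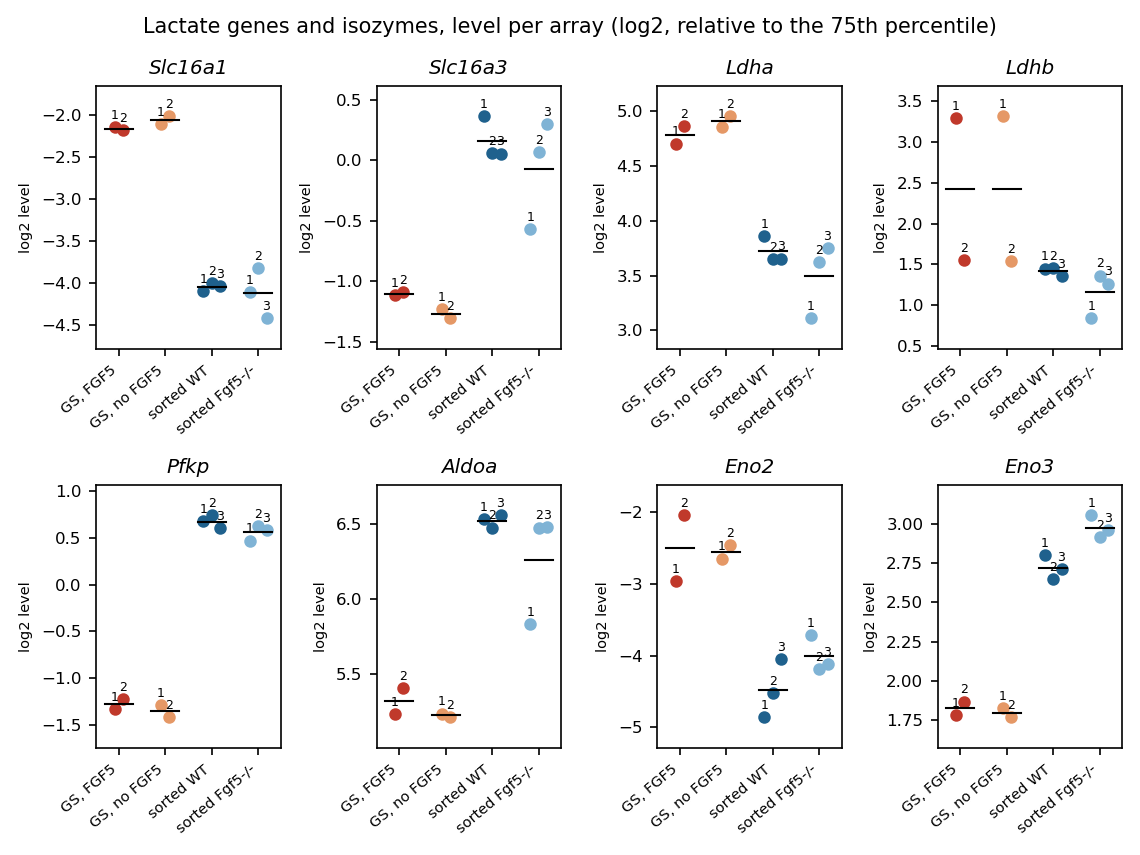
Log2 level of 8 members on each array, with points numbered by replicate and bars at the group means, where 0 is the 75th percentile of an array and each panel has its own axis. Slc16a1, Ldha and Eno2 are higher and Slc16a3, Pfkp, Aldoa and Eno3 lower on the culture arrays, and Ldhb is at 3.28 and 3.31 on the culture arrays numbered 1 and at 1.55 and 1.54 on those numbered 2.

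Among the 7 genes of upper glycolysis, 3 were lower (25.7% of all probes) and 1 was higher (41.9% of all probes) in culture. Pfkp encodes the platelet-type subunit of phosphofructokinase. It was at -1.33 and -1.22 with FGF5, -1.28 and -1.42 without FGF5, 0.68, 0.74 and 0.60 in WT, and 0.47, 0.62 and 0.58 in Fgf5-/-. All culture arrays lay far below all sorted arrays, and the difference was -1.93 (SE 0.09, 95% confidence interval -2.13 to -1.72, 3.81-fold lower in culture, adjusted p = 1.82e-06).

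The second Pfkp probe did not show this. It was above background on 8 of 10 arrays, and its difference was 0.34 (SE 0.24, adjusted p = 0.221), so averaging the probes reduced the difference to -0.79. On mm9, the first probe is given at chr13:6581718-6583872 on the minus strand, a span of 2155 bases that a 60-mer can only cover across a gap such as an intron, and the second at chr13:6579124-6579183. Their first 30 bases, shown because the call depends on which is read, are:
Pfkp brightest probe: caaactgaaggggtcccagggcacagggaa
Pfkp second probe: cttcatggtctcagaatttccttcagagtt

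Aldoa, the main aldolase of muscle and most dividing cells, was at 5.23 and 5.40 with FGF5, 5.23 and 5.21 without FGF5, 6.53, 6.48 and 6.56 in WT, and 5.83, 6.48 and 6.48 in Fgf5-/-. The groups did not overlap, although Fgf5-/- replicate 1 was again the lowest sorted array. The difference was -1.13 (SE 0.14, 2.18-fold lower in culture, adjusted p = 2.15e-04). Aldoc, the brain-type aldolase, was also lower, by a difference of -0.39 (adjusted p = 0.0323), and Pfkl, the liver-type phosphofructokinase subunit, was higher at 0.53 (adjusted p = 0.0264), but the arrays of these genes overlapped between the materials. Gpi1 (-0.07), which isomerises glucose 6-phosphate, the muscle-type subunit gene Pfkm (-0.19) and the triose isomerase gene Tpi1 (0.20) did not pass. A second Tpi1 probe at 0.59 did pass (adjusted p = 0.00258).

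In lower glycolysis the 3 enolase genes did not move as a block. Eno2, the neuron-type enolase, was at -2.96 and -2.05 with FGF5, -2.65 and -2.47 without FGF5, -4.86, -4.53 and -4.05 in WT, and -3.72, -4.19 and -4.12 in Fgf5-/-. Its culture arrays lay above its sorted arrays, with wide spread inside each material, and the difference was 1.71 (SE 0.22, 3.28-fold, adjusted p = 2.38e-04).

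Eno3, the muscle-type enolase, was at 1.78 and 1.87 with FGF5, 1.83 and 1.77 without FGF5, 2.80, 2.65 and 2.71 in WT, and 3.05, 2.91 and 2.96 in Fgf5-/-. The culture arrays lay tightly together below all sorted arrays, and the difference was -1.04 (SE 0.09, 2.05-fold lower in culture, adjusted p = 2.46e-05). Eno1, the general enolase, passed narrowly at 0.53 (SE 0.20, adjusted p = 0.0469), with overlapping arrays. The file gives the Eno1 probe on mm9 chromosome 2 while the gene's RefSeq promoter lies on chromosome 4, so the signal could be shared with a near-identical copy.

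Gapdh, the glyceraldehyde 3-phosphate dehydrogenase often used as a reference gene, was lower in culture. Its brightest probe was at 6.40 to 6.67 on the 4 culture arrays and at 6.80 to 7.61 on the 6 sorted arrays, a difference of -0.86 (SE 0.14, adjusted p = 9.15e-04). Of its 7 probes 6 were lower in culture, at -0.86 to -1.29, and the other gave -0.12 (adjusted p = 0.548). The brightest probe is placed on chromosome X and the gene on chromosome 6, and Gapdh is known for its many processed pseudogenes, so reads of single probes are uncertain here. Pgk1 (-0.21), which makes the first ATP of the pathway, and Pgam1 (0.04) did not pass, and the brightest Pgk1 probe is likewise placed on chromosome 3 rather than on X.

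Pkm, the pyruvate kinase gene by its array name, was at 3.78 to 4.45 on the culture arrays and 4.67 to 5.26 on the sorted arrays. It was lower in culture by a difference of -0.94 (adjusted p = 2.05e-04). With FGF5 it was at 4.24 and 4.45 and without at 4.06 and 3.78, which do not overlap (0.43, SE 0.19, 95% confidence interval -0.08 to 0.93), and its adjusted p rounded to 1. In WT it was at 5.17, 5.26 and 5.22 and in Fgf5-/- at 4.67, 5.05 and 5.08, which do not overlap either (-0.29, SE 0.14, limma adjusted p = 0.738). The probe does not tell the M1 and M2 splice forms apart by its name, and Pkm is not counted among the members.

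Of the 4 genes of glucose uptake and phosphorylation 1 passed, beside 67.6% of all probes. Hk1, the constitutive hexokinase, was at 7.25 and 7.31 with FGF5, 7.13 and 7.50 without FGF5, 6.04, 6.31 and 6.48 in WT, and 6.17, 6.39 and 6.24 in Fgf5-/-. These groups did not overlap, and the difference was 1.02 (SE 0.12, 2.03-fold, adjusted p = 1.58e-04).

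Only this Hk1 probe of 3 gave that answer. The other probes were above background on all 10 arrays and gave -0.37 (SE 0.20, adjusted p = 0.120) and -0.06 (SE 0.12, adjusted p = 0.693), and the mean of the 3 probes gave 0.20 with an adjusted p of 0.122. The file places the brightest probe on mm9 at chr5:22118404-22118463 on the minus strand, and the others at chr10:61731856-61731915 and chr10:61732717-61732776, on the chromosome of the RefSeq Hk1 promoter. The first 30 bases of each are printed since the Hk1 call turns on the choice of probe:
Hk1 brightest probe: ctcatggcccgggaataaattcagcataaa
Hk1 second probe: ggaatctcccatcgctttagtgagccattg
Hk1 dimmest probe: aaggaactgtcaccaaagtgtaccgtgtcc

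Hk2 (-0.19), the inducible hexokinase, and the glucose transporter genes Slc2a1 (0.21) and Slc2a3 (0.37) did not pass, and their culture and sorted arrays overlapped. Their 95% confidence intervals ran from -0.48 to 0.09 for Hk2, from -0.26 to 0.68 for Slc2a1 and from -0.13 to 0.88 for Slc2a3.

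**Figure D4:**
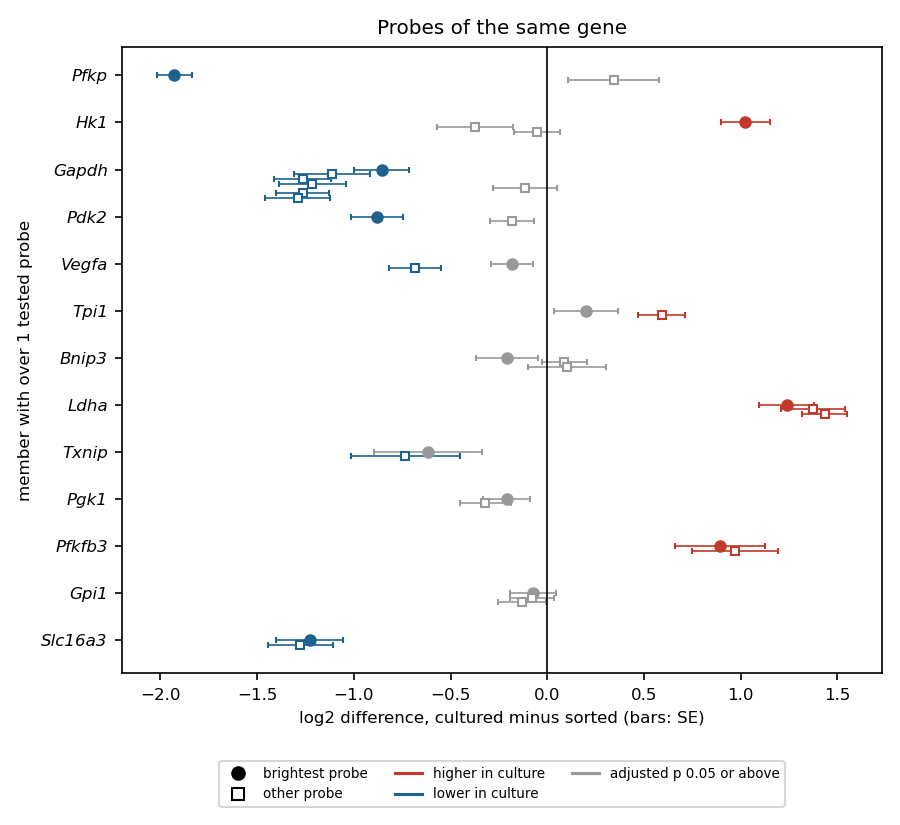
Log2 difference, cultured minus sorted, with SE, for each tested probe of the 13 members that have over 1 tested probe, where filled circles are the brightest probes and open squares the others. The brightest Pfkp probe at -1.93 and Hk1 probe at 1.02 lie far from the other probes of their genes, while the 3 Ldha probes lie between 1.24 and 1.43. Probes of Gpi1 share runs of 40 to 47 bases, and those of Pgk1 and of Slc16a3 runs of 53, so they are not separate readings.

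The 4 Pfkfb genes, which encode the bifunctional enzymes that make and break fructose 2,6-bisphosphate, all passed (67.6% of all probes) and none of their arrays overlapped between materials (55.7% of all probes do not). Pfkfb3 (0.89, SE 0.23, adjusted p = 0.00852), Pfkfb2 (0.84, SE 0.12, adjusted p = 4.23e-04) and Pfkfb4 (0.66, SE 0.14, adjusted p = 0.00354) were higher in culture. Pfkfb1, the liver and muscle form, was lower at -0.89 (SE 0.13, adjusted p = 4.82e-04). A second Pfkfb3 probe gave 0.97.

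Of the pyruvate dehydrogenase group, the kinase genes Pdk2 (-0.88, SE 0.13, adjusted p = 5.25e-04) and Pdk3 (-0.74, SE 0.16, adjusted p = 0.00317) were lower in culture. A second Pdk2 probe gave -0.18 and did not pass. Pdk1 (0.19) and the E1 subunit gene Pdha1 (0.07) did not pass. Pdk4 was not tested. It was above background on 1 of 2 arrays in each culture group, at -4.92 and -4.02 with FGF5 and -5.74 and -4.27 without, the higher value coming from the array numbered 2 in both. In sorted cells, where no array was above background, its signal ranged from -7.55 to -5.91.

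G6pdx, which opens the pentose phosphate pathway, was lower in culture at -0.51 (SE 0.14, adjusted p = 0.0125). Hif1a, the oxygen-regulated subunit of the hypoxia factor, was lower at -0.65 (SE 0.10, adjusted p = 4.98e-04). Its targets Vegfa (-0.18) and Bnip3 (-0.21) and the glucose-sensing gene Txnip (-0.62) did not pass by their brightest probes. Second probes of Vegfa (-0.68) and Txnip (-0.73) did, with limma adjusted p of 0.00192 and 0.0461. Further Bnip3 probes had the opposite sign to its brightest probe, at 0.09 and 0.10, and did not pass.

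Other lists around glucose use held genes called in both directions, and their counts stand beside 41.9% of all probes called higher and 25.7% called lower. Of 23 tested further glycolysis and glucose genes, 9 were higher and 7 lower in culture. The called genes of this list with the largest differences included Pck1, the gluconeogenic carboxykinase. The red cell and liver pyruvate kinase Pklr and the phosphoglucomutase Pgm1, both below background on all 6 sorted arrays, were also called higher in culture. With Pck1 and Hk3, they entered the test only through culture groups, where they are high, so that the filter favoured 4 of the 9 higher calls. The lower bound of the fold, against the dimmest signal counted as above background, was 2.18 for Pklr (at least 2.18-fold higher) and 1.69 for Pgm1. Of 5 germ cell isozymes 1 was higher and 2 were lower, namely Ldhc at 1.44 (the testis lactate dehydrogenase), Eno4 at -3.00 and Gapdhs (the sperm forms of enolase and Gapdh). Gapdhs was above background on 1 of 4 culture arrays and entered through sorted groups alone, so no exact difference is given for it. Of 8 pentose phosphate genes Rpe was higher (0.75), and Rpia (-0.27) and Tktl2 were lower. Tktl2 likewise entered through sorted groups alone, being above background on 2 of 4 culture arrays.

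Of 10 genes for pyruvate entry into the mitochondrion 3 were higher and 3 lower, with Pdhb (-1.12) and Pdhx (-0.59), parts of pyruvate dehydrogenase, and the phosphatase gene Pdp2 (0.96) differing most. Of 17 TCA cycle genes 1 was higher and 5 were lower, with Idh3b at -0.86, Dlst at -0.68 and the citrate synthase gene Cs at -0.59. Of 18 tested genes of the hypoxia list 6 were higher and 7 lower, with Epas1 at -3.76 and Hif3a at 2.58. P4ha1 was also called higher, but it entered through culture groups alone and was above background on 2 of 6 sorted arrays.

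FGF5 itself left no member past the threshold. Of 34 tested members 0 passed, and the test called 0 of all 34612 probes (0%). At an unadjusted p under 0.05 stood 0 members and 2.55% of all probes. With 2 arrays a group this fit called nothing, not even Etv5, a known target of FGF signalling, whose level was 3.68 with FGF5 and -0.24 without (difference 3.93, SE 0.67), a gene picked after its values were seen. The smallest adjusted p over all probes rounded to 1. The members' median difference was 0.02, beside -0.03 for all probes, and their differences ran from -0.47 to 0.55.

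The 8 members with the largest test statistic were Hk2, Slc2a1, Pfkl, Bnip3, G6pdx, Slc16a3, Pfkfb2 and Tpi1. Hk2 was at 0.87 and 1.44 with FGF5 and at 0.55 and 0.67 without. The arrays did not overlap, and the difference was 0.55 (SE 0.25, 95% confidence interval -0.11 to 1.20). Without FGF5 replicate 2 it was 0.26 and without FGF5 replicate 1 it was 0.84.

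Slc2a1 was at 3.54 and 2.96 with FGF5 and at 3.77 and 3.53 without, which overlap (-0.40, SE 0.26, but -0.11 without FGF5 replicate 2 and -0.70 without FGF5 replicate 1). Pfkl was at -2.73 and -3.52 with FGF5 and at -2.60 and -2.71 without (-0.47, SE 0.30). Bnip3, a mitophagy receptor induced by hypoxia, was at 4.06 and 4.08 with FGF5 and at 4.13 and 4.70 without (-0.34, SE 0.24). The Pfkl difference was -0.07 without FGF5 replicate 2, and the Bnip3 difference was -0.06 without replicate 2 of the group without FGF5.

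G6pdx was at 1.96 and 2.10 with FGF5 and at 1.84 and 1.81 without (0.20, SE 0.16). Slc16a3 was at -1.11 and -1.09 with FGF5 and at -1.23 and -1.31 without (0.17, SE 0.15). The groups did not overlap for G6pdx or Slc16a3. Pfkfb2 was at -0.81 and -0.99 with FGF5 and at -0.70 and -0.80 without (-0.15, SE 0.17). Tpi1 was at 1.48 and 1.58 with FGF5 and at 1.39 and 1.39 without (0.14, SE 0.16). Without FGF5 replicate 2 the differences were 0.13 for G6pdx, -0.06 for Pfkfb2 and 0.08 for Tpi1. Over all members the arrays did not overlap for 9 of 34 (26.5%), against 22.8% of all probes, with 4 higher (8.16% of all probes) and 5 lower (14.6% of all probes) under FGF5.

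The numbers of the culture samples separated some members far more than FGF5 did, a pattern that was noticed after the values were seen. Ldhb was higher on the array numbered 1 than on that numbered 2 by 1.73 with FGF5 and by 1.77 without, while with and without FGF5 differed by -0.03 at number 1 and by 0.01 at number 2. Pfkfb3 was higher at number 1 by 1.01 and 0.92. Slc2a3 differed by -0.92 and -0.72 and Txnip by -0.82 and -1.10, both lower at number 1.

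These were the 4 of 34 members (11.8%) that differed by at least 1.5-fold the same way in both conditions, beside 8.13% of all probes. Ldhb alone passed 2-fold (2.94% of members, 2.22% of all probes). The summed fibroblast and peritubular markers moved with the number as well, at 14.9 and 16.5 on the arrays numbered 1 and at 6.73 and 7.72 on those numbered 2, and their part in the Ldhb levels was not tested.

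Loss of Fgf5 left no member past the threshold in sorted cells either. Of 34 tested members 0 passed, as did 0 of all 30285 tested probes (0%), with a smallest adjusted p of 0.729. At an unadjusted p under 0.05 stood 2 members (5.88%) and 6.77% of all probes. The median difference of the members, Fgf5-/- minus WT, was -0.08, beside -0.03 for all probes, and 11 of 34 lay above 0 (32.4%) against 44.0% of all probes. Arrays did not overlap for 7 of 34 members (20.6%), against 16.2% of all, with 3 higher (7.01% of all probes) and 4 lower (9.19% of all probes) in Fgf5-/-.

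**Figure D5:**
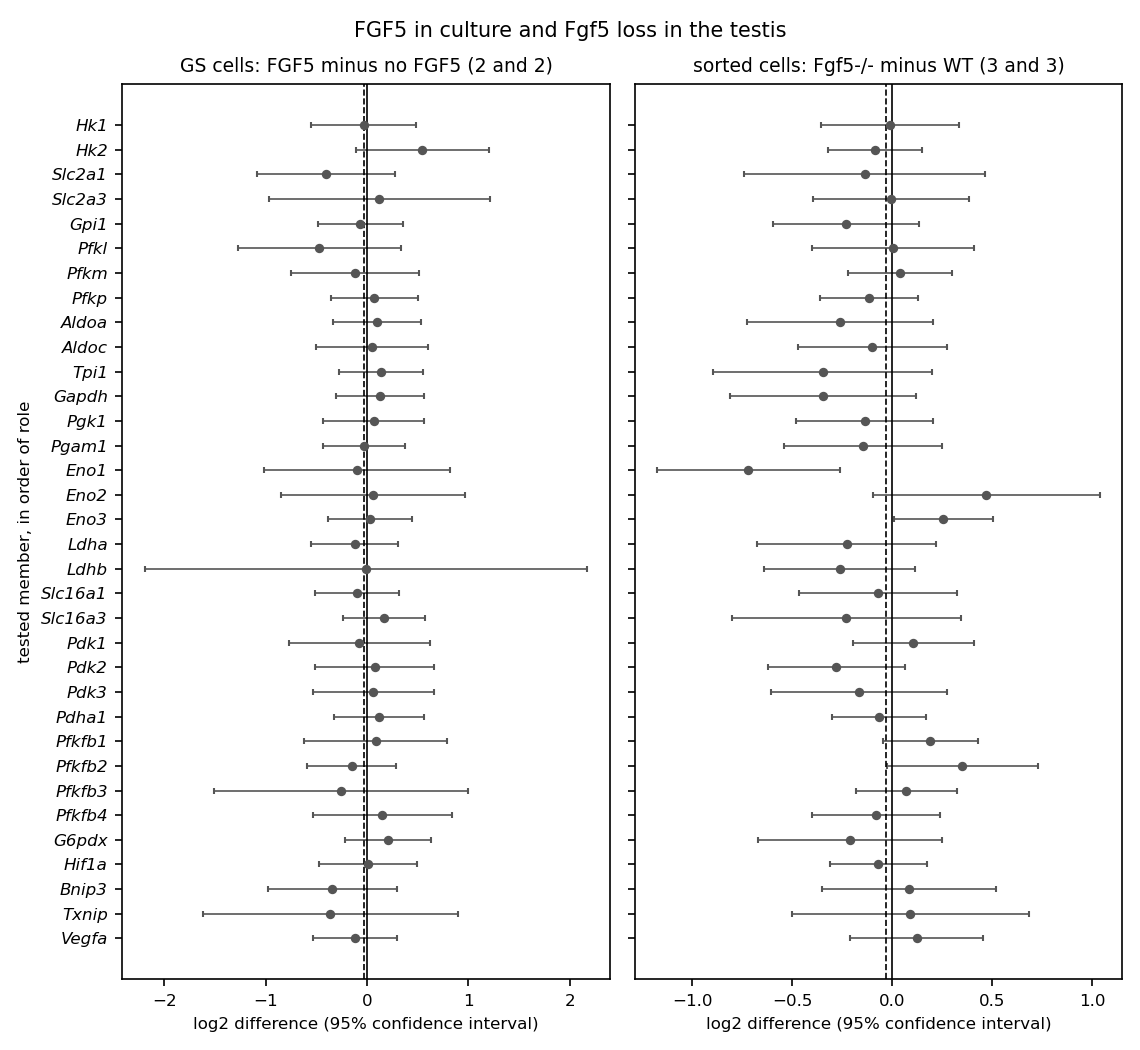
Log2 differences with 95% confidence intervals of the 34 tested members for FGF5 in GS cells (left) and for Fgf5-/- against WT sorted cells (right), on axes of different range, with dashed lines at the medians of all tested probes. The interval of Ldhb on the left, from -2.20 to 2.17, is the widest, and on the right Eno1 at -0.72 lies farthest from 0. No member passed the adjusted threshold in either panel.

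The array Fgf5-/- replicate 1 gave the lowest of the 6 sorted values in 20 of 34 members (58.8%), against 37.5% of all probes, and the highest in 3 of 34, against 26.1% of all probes. Without it the members' median difference was 0.02. Its Fgf5 probe was above background, as given above, and its summed markers of undifferentiated spermatogonia were 212, against 241 to 256 on the WT arrays and 245 and 248 on the other Fgf5-/- arrays. It was also the lowest sorted array for the summed markers of Sertoli cells (6.19), Leydig cells (0.417), macrophages (1.03), endothelial cells (2.38) and spermatids (4.52), and the highest for those of fibroblasts and peritubular cells (6.57) and spermatocytes (23.4). The part of this array's composition in the members' values was not tested.

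Eno1 was at 6.09, 6.02 and 6.00 in WT and at 4.92, 5.63 and 5.41 in Fgf5-/-. The 3 Fgf5-/- arrays lay below the 3 WT arrays, with replicate 1 lowest. The difference was -0.72 (SE 0.19, 95% confidence interval -1.17 to -0.26, limma adjusted p = 0.729), and without Fgf5-/- replicate 1 it was -0.52 (adjusted p = 0.534). The doubt about the locus of its probe applies here too.

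Eno3 was at 2.80, 2.65 and 2.71 in WT and at 3.05, 2.91 and 2.96 in Fgf5-/-, a difference of 0.26 (SE 0.10, adjusted p = 0.729). Pfkfb2 was at -1.75, -1.98 and -1.79 in WT and at -1.22, -1.72 and -1.53 in Fgf5-/- (0.35, SE 0.16, adjusted p = 0.732, but 0.21 without Fgf5-/- replicate 1). Pfkfb1 was at 1.19, 1.10 and 1.10 in WT and at 1.25, 1.32 and 1.38 in Fgf5-/- (0.19, SE 0.10, adjusted p = 0.748). In these 3 genes every Fgf5-/- array lay above every WT array.

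Eno2 was at -4.86, -4.53 and -4.05 in WT and at -3.72, -4.19 and -4.12 in Fgf5-/-, which overlap (0.47, SE 0.24, but 0.28 without WT replicate 1). Pdk2 was at -0.26, -0.60 and -0.66 in WT and at -0.91, -0.76 and -0.70 in Fgf5-/- (-0.28, SE 0.14, but -0.16 without WT replicate 1). Gapdh was at 7.49, 7.57 and 7.61 in WT and at 6.80, 7.49 and 7.36 in Fgf5-/- (-0.35, SE 0.19). Without Fgf5-/- replicate 1 the Gapdh difference was -0.14. Over 11 alternative settings the difference ranged from 0.18 to 0.53 for Eno2, -0.30 to -0.19 for Pdk2 and -0.37 to -0.05 for Gapdh. For Pfkfb2 it ranged from 0.17 to 0.41.

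Ldhb was at 1.45, 1.45 and 1.36 in WT and at 0.84, 1.37 and 1.27 in Fgf5-/- (-0.26, SE 0.16), and without replicate 1 the difference was -0.10. The other 26 members lay between -0.35 (Tpi1) and 0.12 (Vegfa). Slc16a1 (-0.07) and Pfkp (-0.12), the members that differed most between cultured and sorted cells, had 95% confidence intervals of -0.47 to 0.33 and -0.36 to 0.13 for Fgf5-/- against WT.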

How the data were processed

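RNA was labelled with Cy3 and hybridised by the authors to 10 Agilent 8x60K mouse arrays. The deposited scanner files hold background-subtracted intensity per spot from Agilent Feature Extraction (10.7.3.1 in the submitters' processing notes, 10.7.1.1 in the file headers). The deposited value table of the same arrays is on the log2 scale and differs from the values used here by a constant on each array; it served as an alternative. The authors floored the signal at 1 and shifted it to the 75th percentile, and this was repeated here: flagged outlier spots and control spots were left out, log2 intensity minus the array's 75th percentile was taken, and spots of a probe were averaged. No member spot was flagged or saturated.

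A probe was tested where all arrays of 1 or more of the compared groups had it well above background. The test was limma 3.58.1 (R 4.3.3, lmFit and eBayes), two-sided, and p-values were adjusted by Benjamini-Hochberg across all probes tested, with a threshold of 0.05. Cultured minus sorted is the mean of the 2 culture groups minus the mean of the 2 sorted groups in 1 fit of all 10 arrays. The members and gene lists were chosen with earlier results of these data known. All members are accounted for by role. Values on every array are given, in cultured against sorted cells, for members past the threshold with at least a 2-fold difference, and in each other comparison for the 8 members with the largest absolute test statistic. Up to 3 genes past the threshold, those with the largest difference, are named from each context list. These lists are further glycolysis, germ cell isozyme, pentose phosphate, pyruvate entry, TCA cycle and hypoxia genes. Probe accessions of 34 of the 35 members matched RefSeq under the same symbol. Probe coordinates are mm9 as in the files; promoter windows are RefSeq's on GRCm38.p6. Precision is limited by how few arrays there are. Alternatives covered the scaling, background correction, deposited table, filter, probe choice, variance trend, replicate block and each array left out.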

Additional observations from a re-analysis of the deposited data

How the results depend on the processing

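No member passed the threshold for FGF5 or for Fgf5-/- under any of 11 alternatives in each comparison or with any array left out (count range 0 to 0), and no named member reversed its direction there. The members' median difference with 1 array left out ranged from -0.06 to 0.05 for FGF5 and from -0.13 to 0.02 for Fgf5-/-. Cultured against sorted, the number of members higher in culture was 10 in the main setting and 5 with the FGF5 group set against WT alone, and 7 to 10 with 1 array left out. The number lower was 10 to 16 over 13 alternatives and 10 to 13 with 1 array left out, and the median ranged from -0.29 to 0.01. Shares of all probes called in these runs are not given here, so the member counts have no background beside them. Scaling to the median of tested probes or over probes above background moved the median of all probes from 0.26 to 0.09 or 0.39, and quantile normalization to 0.12. Among members with at least a 2-fold difference, Hk1 lost its call with the mean of its probes (0.20), and Ldhb lost it in 4 of 13 alternatives and with 8 of 10 arrays left out in turn (0.69 to 1.57, adjusted p up to 0.139). The other 7 kept their direction and call in all of these, and no direction reversed. The size of some differences did move, at the least to 1.29 for Slc16a1, 1.11 for Eno2 and -0.79 for Pfkp. The cause of these changes was not tested.

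Samples with the same number deviated together in culture (correlation of deviations 0.64). With 2 arrays a group both pairs must give the same value, so it is a single reading and does not establish a pairing. In sorted cells equally numbered samples gave -0.42, -0.16 and -0.15, while unequally numbered samples gave values from -0.48 to 0.48. With the replicate block 0 members passed for FGF5 and 0 for Fgf5-/-, and 9 higher and 11 lower in culture. The shares of all probes called in that fit are likewise not given, so these counts have no background either.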
